A study of Mus musculus with 2 samples.

Results

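The olfactory receptor gene clusters of mouse chromosomes 2, 7 and 9 were examined for copy number in 2 haploid embryonic stem cell lines. The members were the 1160 array probes that are not controls, are present in both scanner files and lie inside 3 windows of the mm9 genome. These were chr2:85000000-90200000 with 454 probes, chr7:109600000-116000000 with 523 probes and chr9:38000000-40000000 with 183 probes. They were drawn from 170305 distinct probes, of which 161370 autosomal probes were measured on both arrays. The windows were set by position, whereas 2 single probes inside them were named because of their low values in 1 line, so the values of those 2 are a description and carry no test.

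The test lines H19Δ1 and H19Δ2 are androgenetic haploid embryonic stem cells, in which the single chromosome set comes from sperm. Each is 1 clone made from AGH-OG-3 cells, which carry an Oct4-eGFP transgene, by CRISPR-Cas9 assisted recombination that replaced the H19 transcription unit and its imprinting control region with a loxP-flanked PGK-neo cassette. Both clones were kept haploid by repeated cell sorting, and H19Δ1 has a C57BL/6 background. Unmodified AGH-OG-3, also haploid, was the reference (Cy3) on both arrays and the H19Δ line was in the other channel (Cy5), so the values below are log2 of H19Δ over AGH-OG-3, set to 0 at the median autosomal probe. There was 1 array per line with no dye swap, both were on 1 slide, and no difference between groups could be tested. Cells were grown with LIF and 2 kinase inhibitors, CHIR99021 and PD0325901, and feeder cells were depleted by plating before DNA extraction.

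Olfactory receptors are G protein-coupled receptors that bind odorants at the cilia of sensory neurons in the nose, and each such neuron uses a single allele of a single receptor gene. The genes arose by repeated tandem duplication and lie in long arrays of close relatives mixed with pseudogenes. The class I receptors, which resemble those of fish, lie on chromosome 7 on both sides of the beta-globin genes. Class II receptors lie on many chromosomes, among them 2, 7 and 9. Which class the probes of the chromosome 7 window belong to was not examined. Copy number in such clusters is known to vary between mouse strains.

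Probes are identified in the files by position alone, without a gene, and an mm9 annotation was not used here, so no probe was placed on a receptor gene and the label of the windows could not be checked against gene names. In the RefSeq annotation of the GRCm38.p6 assembly, used here only for the names and order of genes, 1428 genes carry an Olfr symbol, and 1110 of them are protein-coding. Chromosome 2 has the most with 377, followed by chromosome 7 with 294 and chromosome 9 with 179. The longest uninterrupted run of protein-coding Olfr genes has 123 genes on chromosome 2 (Olfr153 to Olfr1274), 42 on chromosome 7 (Olfr467 to Olfr519) and 40 on chromosome 9 (Olfr160 to Olfr919). On chromosome 7 the beta-globin genes Hbb-bt, Hbb-bs, Hbb-bh2, Hbb-bh1 and Hbb-y stand between Olfr67 and Olfr66.

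The median log2 ratio of each of the 3 clusters lay within 0.05 of the autosomal level in both lines, and 2 single probes of H19Δ1 were far below it. On chromosome 2 the median log2 ratio was -0.0076 ± 0.0078 in H19Δ1 and -0.021 ± 0.0079 in H19Δ2 (± SE over the 454 probes of 1 array). On chromosome 7 it was 0.0062 ± 0.0069 in H19Δ1 and -0.011 ± 0.0068 in H19Δ2 over 523 probes. On chromosome 9 it was 0.011 ± 0.010 in H19Δ1 and -0.017 ± 0.0094 in H19Δ2 over 183 probes. The SE covers the scatter between probes of 1 hybridization and not the variation between arrays, which 1 array per line cannot give. As a yardstick, the medians of 18 of the autosomes ran from -0.024 to 0.011 in H19Δ1 and from -0.042 to 0.047 in H19Δ2, and all 6 cluster medians lay inside these ranges, with the chromosome 9 value of H19Δ1 (0.0109) just under the upper end (0.0111). With the normexp background model at an offset of 50, the autosome medians of H19Δ1 ended at 0.0085, and chromosome 7 at 0.015 and chromosome 9 at 0.024 were above that range. In H19Δ2 that setting, which also lacks the software's dye normalization, kept the 3 clusters inside, with chromosome 9 at -0.039. Chromosome 12 was kept out of the yardstick, since its median was 0.156 in H19Δ2 and 0.00070 in H19Δ1. A whole autosome holds many more probes than a cluster, with 12271 on chromosome 2 outside its cluster. A place inside the range therefore does not show that a cluster is unshifted. The remaining probes of chromosomes 2, 7 and 9 had medians from 0.0023 to 0.0061 for H19Δ1, and from -0.0053 to just below 0 for H19Δ2.

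The clusters were next set beside their flanks, with no test. Windows of the same length placed directly to the left and right of each cluster had medians from -0.022 (142 probes to the right of the chromosome 9 cluster) to 0.0069 (295 probes to the left of the chromosome 2 cluster) in H19Δ1. In H19Δ2 they ran from -0.015, again to the right of the chromosome 9 cluster, to 0.0026 to the right of the chromosome 2 cluster. The SE of these 12 values was between 0.0059 and 0.013. The cluster lay farthest from both of its flanks on chromosome 2 in H19Δ2, where -0.021 ± 0.0079 stood against -0.0025 ± 0.0079 on the left and 0.0026 ± 0.0071 on the right. The widest difference from a single flank was on chromosome 9 in H19Δ1, where 0.011 ± 0.010 stood against -0.022 ± 0.012 on the right. Its left flank, at 0.0023 ± 0.012, was close to it, and the right flank was the lowest flank in both lines.

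Within the clusters, each window was cut into 10 equal stretches, which gave 60 medians over both lines. Of these, 3 lay more than 2 SE from 0 and 2 more than 3 SE. The lowest was stretch 5 of chromosome 2 (chr2:87080000-87600000) in H19Δ2, at -0.094 ± 0.020 over 55 probes, where H19Δ1 had -0.036 ± 0.018. The highest was stretch 7 of chromosome 2 (chr2:88120000-88640000) in H19Δ1, at 0.084 ± 0.023 over 44 probes, where H19Δ2 had -0.0071 ± 0.022. The third was stretch 9 of chromosome 7 in H19Δ1, at 0.039 ± 0.019 over 58 probes. None of the chromosome 9 stretches, each with 14 to 21 probes, passed 2 SE in either line. In a haploid genome the loss of the only copy leaves no target DNA and an added copy would give a log2 ratio of 1, so these shifts are small beside either.

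The scatter between probes was close to that of the genome. The robust SD (the scaled median absolute deviation) was 0.133 in H19Δ1 and 0.134 in H19Δ2 on chromosome 2, 0.126 and 0.125 on chromosome 7, and 0.110 and 0.101 on chromosome 9. Taking all autosomal probes, H19Δ1 had 0.120 and H19Δ2 0.123. With normexp the values for chromosomes 2, 7 and 9 were 0.132, 0.126 and 0.140 in H19Δ1 and 0.138, 0.154 and 0.136 in H19Δ2. The order of the clusters thus changed with this setting, which alters both background correction and dye normalization. The ordinary SD of H19Δ1 was 0.188 on chromosome 2 and 0.218 on chromosome 7, and leaving out the 2 named probes brought it to 0.138 and 0.129, beside 0.140 and 0.130 in H19Δ2. Without the named probes the robust SD of H19Δ1 was 0.133 on chromosome 2 and 0.126 on chromosome 7, and the medians were -0.0072 and 0.0063.

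Probes at 0.25 or more in size were counted as a measure of the tails. On chromosome 2 there were 30 of 454 probes (6.61%) in H19Δ1 and 40 (8.81%) in H19Δ2, on chromosome 7 33 of 523 (6.31%) and 24 (4.59%), and on chromosome 9 10 of 183 (5.46%) and 5 (2.73%). The share over all autosomal probes was 5.22% in H19Δ1 and 6.99% in H19Δ2. That share includes chromosome 12, which was shifted in H19Δ2. Outside the clusters, chromosomes 2, 7 and 9 had 5.40%, 4.62% and 4.80% in H19Δ1 and 5.72%, 4.89% and 4.94% in H19Δ2. Set against its own chromosome, the chromosome 2 cluster had the higher share in both lines, while chromosomes 7 and 9 were higher in H19Δ1 and lower in H19Δ2, and none of this was tested. At a log2 ratio below -1 the members were 1 probe on chromosome 2 and 1 on chromosome 7 in H19Δ1, which are the named probes, and 0 in H19Δ2. Over all autosomal probes 0.0118% were below -1 in H19Δ1 and 0.0242% in H19Δ2. No cluster probe exceeded 1 in either line, where the autosomal shares were 0.00868% and 0%. At 0.5 in size the only further probes were 2 on chromosome 2 in H19Δ1, both high.

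The first named probe lies at chr2:87582907-87582966, 2.58 Mb into its window, and covers 60 bases. On the H19Δ1 array its reference signal was 758 and its H19Δ1 signal 114. After centring this is 15.0% of the reference and a log2 ratio of -2.74. On the H19Δ2 array the same reference DNA gave 829 and H19Δ2 gave 738, a log2 ratio of -0.18. The reference channel thus differed by a factor of 1.09 between the arrays, whereas the H19Δ channel was 6.45 times brighter in H19Δ2. The H19Δ1 signal was well above background by the scanner software's own flag, so this ratio is a measured value. The software's error for it was 0.335 on the log2 scale. The size depended on the signal processing, and the normexp model with an offset of 50 gave -1.43.

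The second named probe lies at chr7:114052859-114052918, 4.45 Mb into its window, and also covers 60 bases. On the H19Δ1 array the reference gave 658 and H19Δ1 gave 40.9, a log2 ratio of -4.02. This H19Δ1 signal was not well above background, so the ratio is only a bound. Set against 56.6, the lowest Cy5 signal that was well above background on that array, the reference was at least 11.6-fold higher, a centred log2 ratio of -3.55 or lower. On the H19Δ2 array the reference gave 701 and H19Δ2 gave 677, a log2 ratio of -0.06. The reference channel differed by a factor of 1.07 between the arrays. With normexp the H19Δ1 value was -1.45.

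The 2 neighbours on each side of both probes lay within 0.5 of 0 in both lines. On chromosome 2 the probes to the left ended 10.9 kb before the named probe and those to the right began 6.27 kb after it. In H19Δ1 the 2 probes to the left had log2 ratios of 0.17 and 0.04 and the 2 to the right -0.07 and -0.16. In H19Δ2 those 4 read -0.47, 0.26, -0.07 and -0.10, and with normexp the first of them, at -0.19, was nearer to 0. On chromosome 7 the gaps were 10.9 kb on the left and 7.03 kb on the right. In H19Δ1 the neighbours had -0.01 and -0.16 on the left and -0.30 and 0.02 on the right, and in H19Δ2 -0.11, -0.02, -0.17 and 0.03. The stretch without another probe was at most 17.3 kb on chromosome 2 and 18.0 kb on chromosome 7. If DNA is missing behind a low value, this is the upper limit for its length, while the lower limit was not measured. Whether DNA is missing there was not tested. Of the 20 nearest probes around each, the lowest in H19Δ1 was -0.19 on chromosome 2 and -0.30 on chromosome 7.

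Neither named probe was among the dimmest of its cluster in the reference. Their reference signals were brighter than 46.0% and 33.5% of the probes of their own clusters on the H19Δ1 array. Each was printed as 1 spot, so no second spot of the same probe measured the low value. The values just inside and just outside the limit of -1 in H19Δ1 were -2.74 and -0.36 on chromosome 2 and -4.02 and -0.36 on chromosome 7.

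The engineered deletion lies on the same chromosome. The 2 probes given for it were chosen by their values, as the probes of chromosome 7 below -2 in both lines, so the size of their loss is a description. These, at chr7:149761403-149761462 and chr7:149768746-149768805, had log2 ratios of -3.67 and -3.79 in H19Δ1 and -3.70 and -2.92 in H19Δ2. They lie 33.8 Mb beyond the end of the chromosome 7 window. The first was well above background in both lines, with 7.83% and 7.71% of the reference signal after centring. The other was not well above background in either, so its ratios are only bounds.

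Low single probes with both neighbours inside 0.5 in size were counted on the autosomes and X, over 170088 probes. H19Δ1 had 17 below -1, of which 2 were in the clusters, and H19Δ2 had 14, of which 0 were. Below -2 there were 9 and 3, again with 2 and 0 in the clusters, which hold 0.682% of the probes. The 2 in H19Δ1 are the named probes, so nothing is read from their number.

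Segmentation by penalised least squares with a minimum length of 3 probes gave 20 segments over the genome in H19Δ1, and 27 in H19Δ2, whose mean reached 0.5 in size. Of these, 2 met the clusters in H19Δ1 and 0 in H19Δ2. On chromosome 2 the segment ran over 3 probes at chr2:87582907-87596263 with a mean of -0.99 and a median of -0.16. On chromosome 7 it ran over 3 probes at chr7:114041898-114060008 with a mean of -1.50 and a median of -0.30. In each, 1 of 3 probes was past 0.5 in size, namely the named probe, and counted by their medians neither segment remained. In H19Δ2 a single segment of 4908 probes with a mean of -0.013 held the whole chromosome 2 cluster, one of 3844 probes with a mean of -0.00039 the chromosome 7 cluster, and one of 6580 probes with a mean of -0.0038 the chromosome 9 cluster. The chromosome 9 cluster of H19Δ1 lay inside a segment of 6837 probes with a mean of 0.0032.

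Probe by probe, the lines differed little. The median of H19Δ2 minus H19Δ1 was -0.020 ± 0.0075 on chromosome 2, -0.0044 ± 0.0072 on chromosome 7 and -0.019 ± 0.0092 on chromosome 9. The medians of the same difference over 18 autosomes ran from -0.028 to 0.047, and the 3 clusters were inside that range. With normexp the chromosome 7 and chromosome 9 values were -0.026 and -0.043, and as the autosomes then began at -0.027, the chromosome 9 value was outside. A difference of 0.5 or more in size occurred at 7 of 454 probes on chromosome 2 (1.54%), 2 of 523 on chromosome 7 (0.382%) and 0 of 183 on chromosome 9, where the share over all autosomal probes was 1.69%. The autosomal share again holds chromosome 12, and the remaining probes of chromosomes 2, 7 and 9 had 0.929%, 0.269% and 0.316%. Both named probes are among these 9.

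The widest differences after the 2 named probes were all on chromosome 2. The probe at chr2:89511117-89511176 read 0.61 in H19Δ1, the highest value of that cluster, and -0.21 in H19Δ2. It was dim, with reference signals of 86.0 and 129, and the software's error was 0.320 and 0.280. The probe at chr2:88958881-88958940 read 0.32 and -0.35 with reference signals of 211 and 247. The probe at chr2:89407215-89407274 read 0.54 and -0.11 with reference signals of 72.3 and 106. All 3 were high in H19Δ1 and low in H19Δ2, but with normexp the H19Δ1 values were 0.06, 0.15 and 0.04 in the order given and those of H19Δ2 -0.09, -0.20 and -0.15. All 3 had reference signals below 401, the level under which the dimmest 10% of autosomal probes lie on the H19Δ1 array.

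Part of the probe scatter was shared by the arrays. Pearson's r over probes was 0.298 on chromosome 2 and 0.263 on chromosome 7, or 0.362 and 0.420 without the 2 named probes, and 0.424 on chromosome 9, beside 0.272 over all autosomal probes. The autosomal value again holds chromosome 12, and the remaining probes of chromosomes 2, 7 and 9 had 0.297, 0.514 and 0.198. By rank (Spearman's rho) the clusters had 0.413, 0.439 and 0.426. The remaining probes of these chromosomes had 0.412, 0.437 and 0.436, and all autosomal probes 0.393. Both arrays share the reference DNA, the dye orientation and the probe sequences, and probes are not independent replicates, so these are descriptions. Probes at -0.25 or lower in both lines numbered 3 on chromosome 2, 2 on chromosome 7 and 0 on chromosome 9, where 0.48% of all autosomal probes did so. Those at 0.25 or higher in both numbered 2, 1 and 1, where the autosomal share was 0.378%. Each count is a handful of probes, and nothing is read from it about the clusters. The highest shared value was at chr2:88113921-88113980, with 0.39 in H19Δ1 and 0.46 in H19Δ2. On chromosome 7 the probe at chr7:113737954-113738004 read 0.33 and 0.35, and it was bright, with reference signals of 4858 and 4744. On chromosome 9 the probe at chr9:38401041-38401100 was the highest in both lines, with 0.35 and 0.26. The lowest shared value was at chr2:87460913-87460972, with -0.30 and -0.49, which is also the lowest of chromosome 2 in H19Δ2. The software's own error for a single spot lay between 0.206 and 0.227 at the chromosome 2 and chromosome 9 probes given here. The chromosome 7 probe was singled out after its values were seen.

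The extremes of the other clusters were of similar size. On chromosome 7 the highest probe was at chr7:110937042-110937101 in H19Δ1, with 0.43 and 0.03 in the other line, and at chr7:110630820-110630879 in H19Δ2, with 0.42 and 0.09 in the other line. The lowest of chromosome 7 in H19Δ2 was at chr7:110761551-110761610, with -0.45 and -0.07 in H19Δ1. On chromosome 9 the lowest were at chr9:38991221-38991280 in H19Δ1 (-0.44, with -0.16 in H19Δ2) and at chr9:39131938-39131997 in H19Δ2 (-0.48, with -0.20 in H19Δ1). These single values depended on the signal processing. With normexp the probe at chr7:110937042-110937101 read 0.22 in H19Δ1 and -0.08 in H19Δ2, and the one at chr7:110630820-110630879 read -0.03 in H19Δ2. The chr7:110761551-110761610 value of H19Δ2 became -0.23, the chr9:38991221-38991280 value of H19Δ1 -0.07 and the chr9:39131938-39131997 value of H19Δ2 -0.16.

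The cluster probes were dimmer than the typical autosomal probe. The median reference signal on the H19Δ1 array was 815 on chromosome 2, 904 on chromosome 7 and 893 on chromosome 9, against 1036 over all autosomal probes. On the H19Δ2 array the same reference DNA gave 815, 904 and 887 against 1038. On the log2 scale the deficit was -0.35, -0.20 and -0.21 on the first array and -0.35, -0.20 and -0.23 on the second. The remaining probes of chromosomes 2, 7 and 9 differed from the autosomal median by no more than 0.027. Below the level that bounds the dimmest 10% of autosomal probes lay 20.3% of the chromosome 2 cluster on the H19Δ1 array, and 18.1% on the other array. The H19Δ channel was dim in the same way, at -0.40 on chromosome 2 in H19Δ1 and -0.41 in H19Δ2, so the lower brightness was seen with all 3 DNAs while the ratio stayed near 0. A signal level depends on the sequence of the probe and is no measure of copies between loci.

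The lower brightness was not a feature of every flank. To the left of chromosome 2 the reference was -0.19 from the autosomal median on both arrays, while to its right it was 0.16 and 0.20. The flanks of chromosome 7 were at 0.20 and 0.02 on the H19Δ1 array and those of chromosome 9 at 0.08 and 0.37. Each of the 3 clusters was thus dimmer than both of its flanks.

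The scatter was then set beside brightness. Over the 3 clusters together the robust SD of the log2 ratio in the dimmest of 4 brightness classes, each holding the same number of autosomal probes, was 0.138 in H19Δ1 (387 probes) and 0.142 in H19Δ2 (393 probes), and in the next class 0.131 and 0.114. The third class had 0.113 and 0.112 and the brightest 0.124 and 0.110, so in H19Δ1 the scatter did not fall at every step. Over all autosomal probes the dimmest class had 0.144 and 0.145 and the brightest 0.108 and 0.111. The clusters had 33.4% of their probes in the dimmest class on the H19Δ1 array and 16.8% in the brightest. The part of brightness in the scatter of the clusters was not tested.

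A few members were printed more than once. There were 9 probes with 5 spots each, 4 on chromosome 2, 3 on chromosome 7 and 2 on chromosome 9, and 1 of them kept 4 spots on the H19Δ2 array once outlier flags were left out. Over the spots of a probe the log2 ratio had a median SD of 0.092 for H19Δ1 and 0.124 for H19Δ2, where 1000 such probes over the array gave 0.085 in both. The widest was chr2:87933081-87933140, whose 5 spots ran from -0.76 to 0.49 in H19Δ1 (SD 0.518) and from -0.96 to -0.01 in H19Δ2 (SD 0.400). Its reference signal averaged 76.9 and 80.8. The narrowest in H19Δ2 was chr2:85278362-85278421, with spots from -0.08 to 0.02 (SD 0.038) and a reference of 1021. In H19Δ1 the narrowest was chr2:89879050-89879109, with an SD of 0.076 and a reference of 602. Repeated spots of 1 probe on 1 array are technical. These 3 probes were singled out after their values were seen.

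Probe coverage of the clusters resembled that of the autosomes, apart from a wide gap on chromosome 7. Density was 87.3 probes per Mb on chromosome 2, 81.7 on chromosome 7 and 91.5 on chromosome 9, and the median spacing was 9895, 9835 and 10464 bases, against 10845 between neighbours on the autosomes. The flanks of chromosome 2 had 56.7 and 73.8 probes per Mb and those of chromosome 9 had 79 and 71, fewer than their clusters. The flanks of chromosome 7 had 96.1 and 83.8, more than the cluster. The widest gap was chr7:112972216-113385087, 413 kb with no probe, and a change inside it would not be seen. On chromosome 2 the widest gap was 97.7 kb and on chromosome 9 30.7 kb. No spot of the clusters was saturated. Among the 1196 spots of the H19Δ1 array, 3 fell short of the background limit in each channel, and on the H19Δ2 array 1 did so in Cy3 and 4 in Cy5.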

How the data were processed

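Genomic DNA of H19Δ1 and H19Δ2 was hybridized with AGH-OG-3 DNA on SurePrint G3 Mouse CGH arrays. The authors deposited scanner output whose processed intensity values were already background-subtracted and dye-normalized, per the file headers by Feature Extraction 11.5.1.1, while the labels name version 10.10. The deposited log10 ratio is Cy5 over Cy3, and the deposited series table holds the same log10 values. All its columns belong to a sample. Here log2(Cy5/Cy3) was computed from the processed intensity, with no loess or quantile step. Control and outlier-flagged spots were left out, which removed 1 spot of a cluster probe (H19Δ2, chromosome 9). Spots of a probe were averaged, and 0.0113 (H19Δ1) and 0.0080 (H19Δ2), the autosomal medians, were subtracted.

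SEs of medians were taken from the robust SD and the number of probes, as for normal scatter. The segmentation penalty per break was 2 times the product of single-probe variance and ln(number of probes). The procedure was tested on simulated data, in which a single low probe was also counted as a segment of the minimum length. Probes were named by rule: the 2 named probes with 2 neighbours on each side, probes past 1 in size, the extremes of each cluster and line, and the 5 widest differences between lines. The members, windows and lists were chosen with earlier results of these data known. Alternatives were other background correction, ratio source, centring, spot and probe filters, window edges, thresholds and segmentation settings. The normexp setting started from median pixel signals less local background, so it also left out the software's dye normalization. Python 3.11.15, numpy 2.4.6, pandas 2.3.3 and numba 0.67.0 were used. The number of arrays limits the precision.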

Additional observations from a re-analysis of the deposited data

Results flagged for a closer look

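The probe at chr2:88958881-88958940 lay on opposite sides of 0 in the lines, past the software's error of 0.232 on each array, with 0.32 in H19Δ1 and -0.35 in H19Δ2. H19Δ2 minus H19Δ1 was -0.66, and this difference was not tested, since there is 1 array per line. With the normexp background model the same probe read 0.15 and -0.20, both inside that error.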

How the results depend on the processing

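Under all alternatives tried, 274 of 290 values kept their size within the limits used: the SD of autosome medians for a level, the software's error for a probe, a factor of 1.5 for a count or SD, and 0.1 on the log2 scale for brightness. Many of these values could hardly move. The deposited log ratio and the series table hold the same ratios as those computed here, and centring leaves an SD unchanged. The count is therefore no measure of robustness. With normexp at an offset of 50, H19Δ1 read -1.43 at the chromosome 2 named probe and -1.45 at the chromosome 7 one, and both stayed below -1. The same setting gave chromosome 9 medians of 0.024 in H19Δ1 and -0.039 in H19Δ2, differences between lines of -0.026 on chromosome 7 and -0.043 on chromosome 9, and 1 counted segment in H19Δ1 in place of 2. Without centring, the H19Δ1 medians were 0.0037, 0.018 and 0.0222 on chromosomes 2, 7 and 9. The autosome medians of H19Δ1 then ran from -0.0122 to 0.0224, so the cluster medians stayed inside that range. With only probes well above background in both channels on both arrays, the chromosome 7 named probe had no value, the chromosome 7 SD of H19Δ1 fell from 0.218 to 0.129 and its count past 1 was 0. The noise from neighbouring probes, in place of the SD, was 0.125 on chromosome 2 and 0.135 on chromosome 7 in H19Δ1. A threshold of 0.5 gave 3 probes on chromosome 2 in H19Δ1 in place of 1. Counted by medians, H19Δ1 had 0 segments in the clusters. Of 266 values of the other named probes, 7 moved, all of them under normexp. An offset added to both channels by itself brings a log2 ratio nearer to 0, most of all at dim spots. How much of these moves came from it was not tested. No paired analysis was possible because the design has a lone array for H19Δ1 and another for H19Δ2. A single array per line limits every value, and the reference DNA is shared.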
